A study of Mus musculus with 4 samples.

Results

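Plasmacytoid dendritic cells (pDCs) made up 138 of 10817 kept cells from the mesenteric lymph nodes of 12 mice aged 15 days, 36 of 6313 in the hCD2+ fraction and 102 of 4504 in the hCD2- fraction. They were chosen by their own RNA counts. A kept cell carried exactly 1 hashtag, at least 500 genes, at least 3000 unique molecular identifiers (UMIs, single counted RNA molecules) and at most 10% mitochondrial UMIs. A pDC was a kept cell with at least 2 UMIs of Siglech and at least 1 UMI of Ccr9, Klk1 or Cox6a2. It also had at most 1 UMI of Cd3e and Cd3d together, none of Ncr1 and under 500 CPM of Prdm16. CPM, the unit of every level below, is a gene's UMIs per 1000000 UMIs of the same cells. The levels of these 8 genes in pDCs follow from the choice and are given as a description, with no test.

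All mice were Gm38411-iCre-hCD2 R26 tdTomato animals without treatment, in which a cassette at Gm38411 drives iCre together with human CD2 at the cell surface, and cells that recombined keep tdTomato. Both fractions came from CD3- B220- CD11c+ MHC-II+ tdTomato+ cells, the hCD2+ one with and the hCD2- one without the human reporter at the surface, so that the groups compared share strain, age, tissue, the cassette and the tdTomato gate. No mouse without the cassette and no cell without tdTomato was in the series as given here. Each fraction was 1 droplet library (10x Chromium, counted from the 3′ end) holding all 12 mice under hashtags, and the mouse was the replicate. Whatever differs between fractions therefore cannot be told apart from what differs between the 2 libraries. Most pDCs of adult mice carry B220 and little CD11c, so that a gate of B220- CD11c+ cells samples only a part of the pDCs of the node.

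Plasmacytoid dendritic cells are bone marrow-derived cells that detect viral RNA and DNA in endosomes through Tlr7 and Tlr9 and can answer with large amounts of type I interferon. Their identity depends on the E protein Tcf4 (E2-2), which binds the DNA motif called E-box and is opposed by Id2, a factor of conventional dendritic cells (cDCs). They present antigen less well than cDCs, enter lymph nodes from the blood, and share early lymphoid genes with B cell precursors. Siglech encodes a pDC lectin that signals through the adaptor Tyrobp, Ccr9 a receptor for the gut chemokine Ccl25, Klk1 a tissue kallikrein and Cox6a2 a cytochrome c oxidase subunit otherwise known from muscle.

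The sequences before the start of 4 of the 5 marker genes (Siglech, Ccr9, Klk1 and Bst2) are printed because Tcf4, the most abundant of the listed pDC regulators, binds E-boxes. They are the 250 bases before the RefSeq start on GRCm38.p6, read 5′ to 3′ along the gene, with each match to the E-box CAGGTG, searched on both strands and so also as CACCTG, in capitals. In order they lie at chr7:55767934-55768183 (plus strand), chr9:123766961-123767210 (plus), chr7:44225110-44225359 (plus) and chr8:71537473-71537722 (minus).

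Siglech: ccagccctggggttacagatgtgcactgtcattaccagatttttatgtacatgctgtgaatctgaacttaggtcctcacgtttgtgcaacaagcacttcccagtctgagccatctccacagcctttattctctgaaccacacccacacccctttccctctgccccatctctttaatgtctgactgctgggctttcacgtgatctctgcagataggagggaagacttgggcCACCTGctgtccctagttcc

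Ccr9: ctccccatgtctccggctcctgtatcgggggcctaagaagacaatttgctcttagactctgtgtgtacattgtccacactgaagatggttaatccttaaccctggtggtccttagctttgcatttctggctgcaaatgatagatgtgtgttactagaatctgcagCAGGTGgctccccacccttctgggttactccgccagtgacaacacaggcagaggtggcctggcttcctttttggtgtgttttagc

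Klk1: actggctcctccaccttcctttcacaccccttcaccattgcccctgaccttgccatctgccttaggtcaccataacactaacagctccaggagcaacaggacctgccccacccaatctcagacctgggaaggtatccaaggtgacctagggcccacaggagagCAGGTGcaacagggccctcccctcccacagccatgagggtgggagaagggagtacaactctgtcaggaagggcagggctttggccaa

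Bst2: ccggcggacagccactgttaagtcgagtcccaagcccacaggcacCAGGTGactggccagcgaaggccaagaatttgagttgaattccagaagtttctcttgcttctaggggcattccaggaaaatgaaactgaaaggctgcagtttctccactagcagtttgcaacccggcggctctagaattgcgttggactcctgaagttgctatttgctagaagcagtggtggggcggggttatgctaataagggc

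The E-box stood 20 bases before the RefSeq start in Siglech, 85 in Ccr9, 87 in Klk1 and 205 in Bst2. In the GENCODE annotation Ccr9 starts upstream, at chr9:123678439, so that its window lies inside that gene span. The Siglech window runs just past the GENCODE start at chr7:55768178. These distances therefore hold for the RefSeq starts only. It was in 4 of these 4 windows and in 17.2% of all 32851 RefSeq windows of the same length. The Bst2 window also held GAAA, any 2 bases and GAAA again, a spacing found in interferon-stimulated response elements, in 2 overlapping matches, against 2.98% of all windows. These are matches of letters, and no binding was measured.

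Genes that the choice did not count were read first, as a description. Bst2 is itself a marker gene of the label, and the genes were listed with earlier results of these data known. Their levels are therefore no independent check of the label. Every one of the 36 hCD2+ and 102 hCD2- cells held Tcf4 RNA, at 3149 and 3545 CPM. Bst2, the tetherin that the antibody PDCA-1 recognises, was at 2319 CPM in hCD2+ pDCs (36 of 36 cells) and 2215 CPM in hCD2- pDCs (99 of 102 cells). Ly6d, a surface gene of lymphoid-primed pDC precursors and pDCs, was at 1412 CPM in hCD2+ pDCs (31 of 36 cells) and 1739 CPM in hCD2- pDCs (92 of 102 cells). Runx2, which supports the exit of pDCs from bone marrow, was at 1337 and 1484 CPM. In near-empty droplets of 10 to 100 UMIs, which sample free RNA, Ly6d was at 7.55 CPM in the hCD2+ and 41.5 CPM in the hCD2- library and Bst2 at 214 and 124 CPM, below the pDC levels in each case.

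The genes of the choice itself differed in how widely they were seen. Siglech was at 1421 CPM in hCD2+ pDCs and 1442 CPM in hCD2- pDCs, with a median of 37.5 and 38 UMIs per cell. Ccr9 was at 897 CPM (35 of 36 cells) and 1003 CPM (101 of 102 cells). Cox6a2 was at 489 CPM (32 of 36) and 470 CPM (87 of 102). Klk1 was the least frequent, at 338 CPM in 20 of 36 hCD2+ cells and 280 CPM in 67 of 102 hCD2- cells. All 3 of these companion genes were found in 20 hCD2+ and 64 hCD2- cells, exactly 2 in 11 and 25, and exactly 1 in 5 and 13. The excluded lineages left 3 and 4 UMIs of Cd3e, 1 and 6 of Cd3d, 2 and 0 of Prdm16 and none of Ncr1 in hCD2+ and hCD2- pDCs. Siglech lies at chr7:55768178-55778925, Ccr9 at chr9:123678439-123784330, Klk1 at chr7:44225360-44229618 and Cox6a2 at chr7:128205435-128206387 in the GENCODE annotation of GRCm38.

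The cells near the threshold of the choice were less like the rest. Those with 2 to 9 UMIs of Siglech numbered 4 in the hCD2+ and 9 in the hCD2- fraction. They held 1529 and 1885 CPM of Tcf4, 566 and 599 CPM of Bst2, 0 and 7.94 CPM of Ly6d, 408 and 310 CPM of Irf8 and 8482 and 8930 CPM of Cd74, the invariant chain of MHC class II. The 32 hCD2+ and 93 hCD2- cells with at least 10 UMIs of Siglech held 3326 and 3719 CPM of Tcf4, 2509 and 2386 CPM of Bst2, 1566 and 1921 CPM of Ly6d, 2190 and 2453 CPM of Irf8 and 4786 and 4797 CPM of Cd74. Just outside, cells with 1 UMI of Siglech and a companion gene (3 hCD2+ and 12 hCD2-) held 228 and 474 CPM of Tcf4. Cells with at least 2 UMIs of Siglech and no companion gene (3 and 6) held 209 and 1082 CPM of Tcf4. Low-Siglech cells inside the choice thus lay between the other pDCs and the cells left out in Tcf4, and had next to no Ly6d. They also held more RNA of Zbtb46, a factor of conventional DCs. It was at 90.6 CPM in hCD2+ (3 of 4 cells) and 262 CPM in hCD2- low-Siglech cells (7 of 9). With at least 10 UMIs of Siglech it was at 34.5 CPM (2 of 32 cells) and 14.6 CPM (18 of 93).

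Depth was alike in pDCs of both fractions. Their median was 23456.5 UMIs in hCD2+ and 24947 in hCD2- cells, with 5000.5 and 5198.5 genes per cell. In all, pDCs gave 899262 hCD2+ and 2644612 hCD2- UMIs of library totals of 191493368 and 165869588. No pDC barcode occurred in both libraries, where 20 called and 8 kept barcodes were shared. Kept cells numbered 315 to 780 per mouse in the hCD2+ and 224 to 561 in the hCD2- fraction.

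Markers of other cell types were read in the same 138 cells. The 8 T cell markers summed to 535 CPM in hCD2+ pDCs and 528 CPM in hCD2- pDCs, with Trac, Trbc1 and Themis at 0 in the hCD2+ cells, and nearly all of it was Cd8b1 (504 and 489 CPM). The 8 B cell markers summed to 26.7 and 37.1 CPM, with Ebf1 and Cr2 at 0 in both fractions. The 6 NK or ILC1 markers summed to 3.34 and 15.9 CPM. The 7 ILC3 or LTi markers summed to 168 and 124 CPM. The 6 cDC1 markers summed to 138 and 124 CPM and the 8 cDC2 markers to 370 and 403 CPM. The 5 plasma cell markers summed to 425 and 408 CPM, of which Mzb1 gave 419 and 384 CPM. The 8 monocyte or macrophage markers ranged over mice from 0 to 2885 CPM in hCD2+ and from 0 to 5442 CPM in hCD2- pDCs. In these, 1 cell of hCD2+ mouse 12 held 371 UMIs of Lyz2 and 1 cell of hCD2- mouse 2 held 836. The migratory DC markers summed to 383 CPM in hCD2+ pDCs, where 1 cell of mouse 10 held 76 UMIs of Ccr7, and to 66.9 CPM in hCD2- pDCs. These cells meet the choice and were kept. No fit left out hCD2- mouse 2 alone.

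The share of pDCs among kept cells, taken per mouse, was compared between the fractions. In the hCD2+ fraction it was 0% at the lowest, 0.411% at the median and 1.83% at the highest, with a mean of 0.606 ± 0.545% (SD, n = 12 mice). In the hCD2- fraction it was 0%, 1.91% and 8.75%, with a mean of 2.22 ± 2.22% (SD, n = 12). The share was lower in hCD2+ than in hCD2- cells in 10 of 12 mice, although the ranges overlapped. The difference of -1.62 percentage points passed a two-sided permutation test (100000 resamples, p = 0.00188, adjusted p = 0.00376 over 2 shares). That test treats the mice as unpaired, although the same mice gave both fractions. With the mouse as a block the p was 0.0117, and without mouse 12, whose hCD2- sample gave 30 of the 102 pDCs, the difference was -1.06 points (p = 0.00454, permutation test).

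A share of kept cells also depends on what else was sorted. The hCD2+ fraction held 1162 Prdm16-high cells (at least 500 CPM) against 27 in the hCD2- fraction. Among gated dendritic cells, that is pDCs and the 3 other DC gates described below, pDCs took 0% at the lowest, 2.43% at the median and 9.89% at the highest in hCD2+ mice, with a mean of 3.90 ± 3.45% (SD, n = 12). In hCD2- mice they took 0%, 5.17% and 17.0%, with a mean of 5.29 ± 4.35% (SD, n = 12). The difference of -1.39 points did not pass the test (p = 0.417, unpaired permutation test with 100000 resamples), with 8 of 12 mice lower in the hCD2+ fraction. A difference among dendritic cells was therefore not detectable in these mice.

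**Figure D1:**
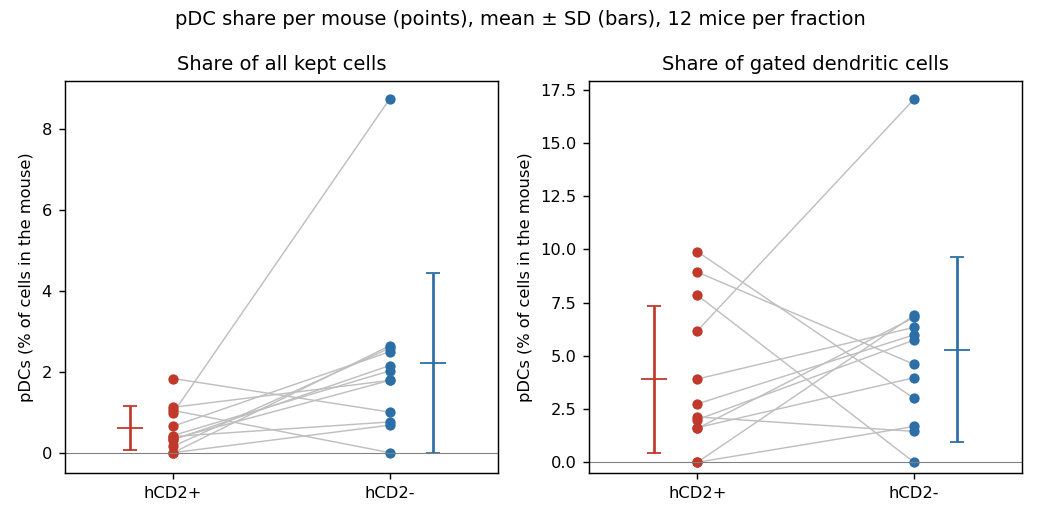
pDCs as a percentage of all kept cells (left) and of gated dendritic cells (right) in each mouse, hCD2+ left of hCD2-; points are mice, grey lines join the fractions of 1 mouse, bars are mean ± SD over 12 mice. The left panel shows 10 of 12 mice lower in hCD2+ and 1 hCD2- mouse at 8.75%; in the right panel the groups overlap throughout.

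Across the 12 mice, the pDC share among kept cells of the hCD2+ fraction was not seen to follow that of the hCD2- fraction. Pearson's r was 0.0563 (permutation p = 0.736) and Spearman's rho -0.249 (permutation p = 0.431). Without mice 4 and 10, the 2 farthest from the median of the hCD2+ share, r was 0.348 (n = 10). Without mouse 12 it was -0.386 (permutation p = 0.262, n = 11), so that the sign rested on 1 or 2 mice.

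pDCs were then set against the other dendritic cells of the same hCD2- library, which holds most of them. Mice with at least 5 cells in a gate entered, 7 for pDCs and 12 for each of the others. The cDC2 gate (380 cells) asked for at least 3 of 8 cDC2 surface genes with Flt3. The cDC1 gate (220 cells) asked for Xcr1 and Clec9a, and the CCR7 DC gate of migratory cells (1145 cells) for Ccr7 and Fscn1; all had under 2 UMIs of Siglech. Counts were summed per mouse and fitted with edgeR's quasi-likelihood test over all genes, with Benjamini-Hochberg adjustment, and a gene was called at an adjusted p under 0.05. Median depth in the hCD2- library was 24947 UMIs per cell in pDCs, 28577 in cDC2, 42293 in cDC1 and 29561 in CCR7 DCs. Genes used by either gate were left out of every count of calls. Genes that vary with Siglech among single cells are partly fixed by the choice, and the 3 comparisons share their pDC samples, so that their likeness to each other is not evidence.

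Many genes differed in each comparison, which is the background for every list below. Against cDC2, 24.3% of 8011 genes were higher and 26.2% lower in pDCs. Against cDC1, 27.4% of 7218 were higher and 29.5% lower, and against CCR7 DCs 28.3% of 9849 were higher and 33.6% lower. The median log2 fold change over all genes was -0.03 in each. Fewer cells of a state and less RNA per cell cannot be told apart in these sums.

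Transcription factors of pDC identity were the first list of 10, and all passed the count filter. In pDCs 8 were higher and 1 lower than in cDC2, 8 higher and 1 lower than in cDC1, and 9 higher and 1 lower than in CCR7 DCs. The list's median log2 fold change was 1.72, 2.60 and 2.66 in that order, against -0.03 for all genes.

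Tcf4 was at 2823, 3711 and 4223 CPM at the lowest, median and highest of the 7 pDC mice. In cDC2 it was at 119, 166 and 302 CPM, in cDC1 at 48.6, 75.8 and 117 CPM, and in CCR7 DCs at 170, 209 and 305 CPM over 12 mice. The lowest pDC sample therefore stood several-fold above the highest sample of any other gate. The mean of 3586 ± 490 CPM (SD, n = 7) compared with 176 ± 49.9 in cDC2, 80.0 ± 20.6 in cDC1 and 219 ± 38.7 in CCR7 DCs (SD, n = 12 each), log2 fold changes of 4.33 ± 0.14, 5.43 ± 0.13 and 3.71 ± 0.11 (SE; edgeR adjusted p at most 2.6e-18).

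Runx2 was at 1036, 1324 and 1800 CPM in pDC mice, against 73.0, 120 and 186 CPM in cDC2, 17.2, 22.7 and 34.8 CPM in cDC1 and 177, 234 and 277 CPM in CCR7 DCs, again with no overlap. Its log2 fold changes were 3.48 ± 0.16, 5.77 ± 0.13 and 2.29 ± 0.10 (SE, all called by edgeR). Zeb2, a repressor that keeps Id2 low, averaged 931 ± 187 CPM in pDCs (SD, n = 7) against 407 ± 68.3 in cDC2, 6.43 ± 4.31 in cDC1 and 367 ± 70.9 in CCR7 DCs (SD, n = 12 each). Bcl11a, which sustains the lymphoid and pDC programmes, averaged 724 ± 174 CPM in pDCs against 352 ± 41.0 in cDC2, 78.5 ± 28.8 in cDC1 and 63.6 ± 23.8 in CCR7 DCs.

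Irf8, which both pDCs and cDC1 need, separated the gates differently. It was at 1854, 2323 and 2477 CPM in pDC mice, against 4.30, 13.2 and 31.6 CPM in cDC2, 1301, 1629 and 2152 CPM in cDC1 and 80.1, 161 and 270 CPM in CCR7 DCs. The pDC and cDC1 ranges overlapped, and the log2 fold change between them was only 0.37 ± 0.09 (SE; edgeR adjusted p = 0.0012; higher in 6 of 7 mice with both). Against cDC2 it was 7.31 ± 0.22 and against CCR7 DCs 3.49 ± 0.16. Spib, an Ets factor shared by pDCs and B cells, averaged 158 ± 42.8 CPM in pDCs against 25.5 ± 7.61 in cDC2 and 39.5 ± 5.90 in CCR7 DCs, and only 3 of its UMIs were found in all cDC1 (ratio of pooled CPM 533, 95% counting interval 181 to 2597).

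The remaining factors were closer to the other gates. Irf7, the master switch of interferon transcription, averaged 107 ± 48.0 CPM in pDCs against 24.6 ± 12.5 in cDC2, 82.0 ± 47.2 in cDC1 and 9.04 ± 7.86 in CCR7 DCs, and was not called against cDC1 (log2 0.37 ± 0.31, edgeR adjusted p = 0.32). Ikzf1 averaged 566 ± 133 CPM and was not called against cDC2 (0.25 ± 0.11, edgeR adjusted p = 0.070). Mef2c averaged 986 ± 287 CPM and was higher in all 3 comparisons, by 0.94 ± 0.16, 2.04 ± 0.24 and 3.03 ± 0.27 on the log2 scale. Cbfa2t3 (ETO2), a corepressor reported to keep cDC genes off in pDCs, was the exception. It averaged 217 ± 85.1 CPM in pDCs against 506 ± 67.9 in cDC2, 409 ± 35.8 in cDC1 and 469 ± 59.8 in CCR7 DCs, with no overlap, and was lower by 1.18, 0.94 and 1.38 on the log2 scale (called by edgeR in each).

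**Figure D2:**
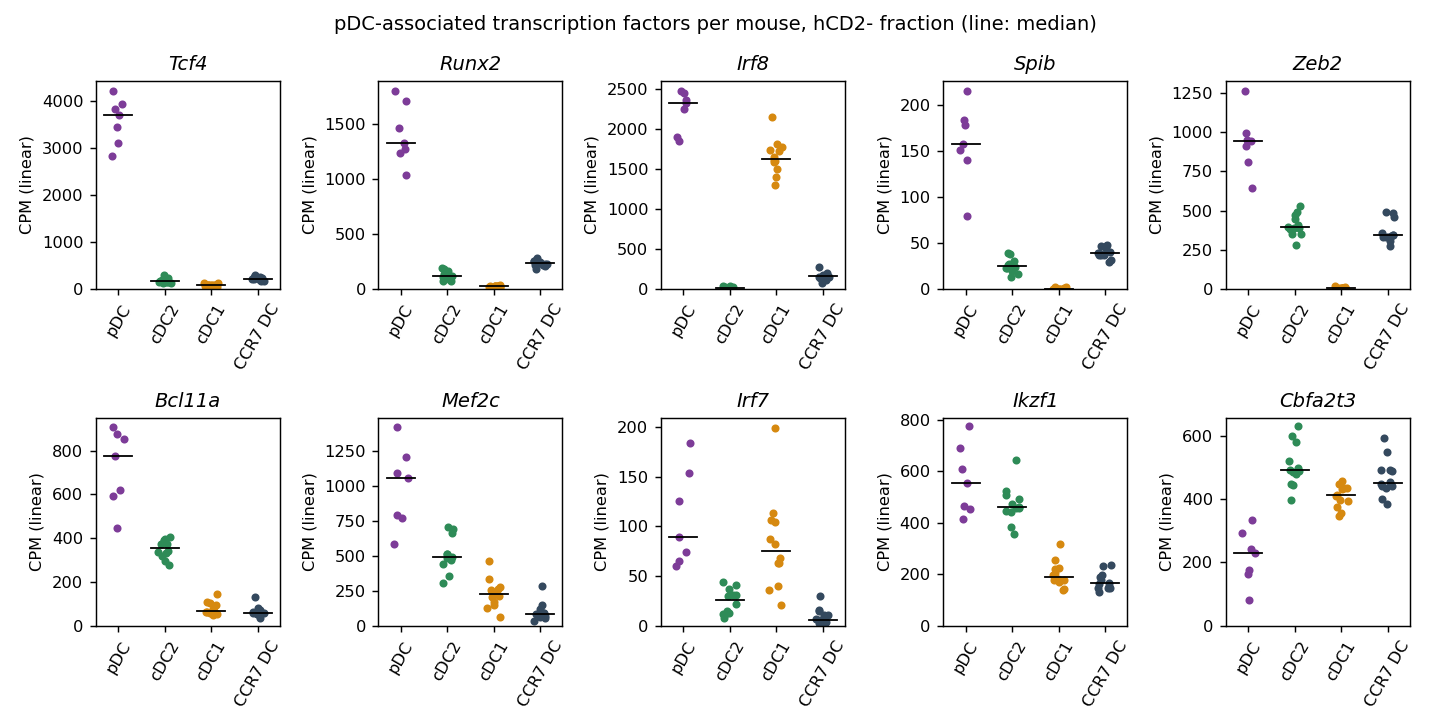
CPM (linear axes, 1 per gene) of the 10 listed transcription factors in each mouse of the hCD2- fraction, pDC (7 mice) left of cDC2, cDC1 and CCR7 DC (12 mice each); lines are medians. Tcf4 and Runx2 separate pDCs from every other gate, Irf8 and Irf7 overlap with cDC1, and Cbfa2t3 lies below the other gates.

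Of 20 other pDC-associated genes, all 20 were higher than in cDC2 and CCR7 DCs and 19 were higher than in cDC1. The median log2 fold change was 5.52, 6.02 and 5.21. Bst2 averaged 2293 ± 531 CPM (SD, n = 7) against 60.02 ± 15.0 in cDC2, 123 ± 39.3 in cDC1 and 65.8 ± 20.01 in CCR7 DCs (SD, n = 12 each). Ly6d averaged 1635 ± 533 CPM against 0.678 ± 0.710, 0.723 ± 0.971 and 4.01 ± 3.88 CPM, log2 fold changes of 10.72 ± 0.27, 10.33 ± 0.30 and 8.42 ± 0.34. Its lowest pDC sample, mouse 2, was at 630 CPM and its highest sample outside pDCs at 13.6 CPM.

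Pacsin1, a membrane-shaping protein needed for interferon release in response to Tlr9 ligands, averaged 425 ± 62.8 CPM in pDCs against 3.29 ± 4.56, 4.82 ± 7.05 and 4.36 ± 2.53 CPM. Blnk, an adaptor of immunoreceptor signalling, averaged 780 ± 186 CPM against 0.820 ± 0.827 CPM in cDC2, 0.516 ± 0.795 in cDC1 and 11.9 ± 4.995 in CCR7 DCs. Pld4, an endosomal exonuclease, averaged 479 ± 72.7 CPM against 187 ± 17.0, 154 ± 19.4 and 58.4 ± 15.1 CPM. Mzb1, an endoplasmic reticulum chaperone shared with plasma cells, averaged 402 ± 72.1 CPM, with 2 UMIs in all cDC2 (ratio 2181, 95% counting interval 602 to 18035) and 2 in all cDC1 (ratio 1861, interval 514 to 15392). Cd8a, the only one not called against cDC1, averaged 132 ± 71.1 CPM in pDCs against 110 ± 25.0 CPM in cDC1, a cell type that carries it in mouse lymphoid tissue.

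The genes of largest difference were then read without regard to any list. Grm8, a glutamate receptor gene, averaged 1382 ± 249 CPM in pDCs, against 1 UMI in all cDC2 (ratio 15200, 95% counting interval 2726 to 600570) and 0.661 ± 1.90 CPM in CCR7 DCs. Mctp2, a calcium-binding membrane protein gene, averaged 1602 ± 229 CPM against 2.61 ± 2.57 in cDC2, 0.618 ± 1.05 in cDC1 and 1.75 ± 1.41 in CCR7 DCs. Cmah, which makes one form of sialic acid, averaged 654 ± 158 CPM, Cacna1e, a calcium channel subunit, 609 ± 136 CPM and Arhgap24, a GTPase regulator, 334 ± 48.2 CPM in pDCs. Ly6c2, a surface protein of pDCs and monocytes, averaged 953 ± 436 CPM against 1.97 ± 3.87 in cDC2, 11.4 ± 8.33 in cDC1 and 2.01 ± 2.86 in CCR7 DCs. Cd8b1, the second chain of the CD8 dimer, was at 227, 411 and 660 CPM in pDC mice, against no sample above 5.01 CPM in the other gates. It was found in 25 of 36 hCD2+ and 75 of 102 hCD2- pDCs. T cell receptor genes were low over the 138 pDCs of both fractions, with 10 UMIs of Trac in 9 cells, 15 of Trbc1 in 7 and 8 of Trbc2 in 7. Of the Trbc1 UMIs, 9 came from 1 cell.

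In the other direction, Sirpb1a had 0 UMIs in pDCs and 178 ± 44.5 CPM in cDC2, at least 141-fold lower against a floor of 3 UMIs over the group. Adgrl3, an adhesion receptor, averaged 2.51 ± 2.64 CPM in pDCs against 988 ± 207 in cDC2. Ifi205, of the interferon-inducible Ifi200 family, averaged 1.57 ± 2.61 CPM in pDCs against 1129 ± 334 in cDC1. P3h2, a collagen-modifying enzyme, had 0 UMIs against 199 ± 46.7 CPM in cDC1 and was at least 152-fold lower. Adgrg6, another adhesion receptor, had 0 UMIs in pDCs against 474 ± 68.3 CPM in CCR7 DCs, at least 379-fold lower, and Cxcl1, a neutrophil chemokine, 0 UMIs against 101 ± 68.6 CPM, at least 94.5-fold lower.

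Genes that sense nucleic acids were called in both directions. Of 20 listed genes, 8 were higher and 5 lower than in cDC2 among the 17 that passed the filter, 8 higher and 3 lower of 18 against cDC1, and 10 higher and 7 lower of 18 against CCR7 DCs, with medians of 0.38, 0.39 and 0.31. Tlr7, the receptor for single-stranded RNA, was at 64.9, 141 and 217 CPM in pDC mice, against 2.01, 5.38 and 11.6 CPM in cDC2. It had 0 UMIs in cDC1 (at least 491-fold higher in pDCs, by the same floor) and averaged 0.478 ± 0.624 CPM in CCR7 DCs. Tlr9, the receptor for CpG DNA, was low in pDCs, with 5 UMIs in 5 of 36 hCD2+ cells and 32 UMIs in 26 of 102 hCD2- cells (5.56 and 12.1 CPM). Of the 3 comparisons it could be tested in that with CCR7 DCs, where it was higher (1.56 ± 0.42, edgeR adjusted p = 0.0028).

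Other members of the list differed in direction. Unc93b1, the chaperone that carries endosomal receptors, averaged 661 ± 50.3 CPM against 327 ± 18.9 in cDC2, 404 ± 38.0 in cDC1 and 166 ± 18.6 in CCR7 DCs. Slc15a4, an endosomal transporter required for interferon release, averaged 143 ± 15.2 CPM against 58.1 ± 12.8, 25.0 ± 6.52 and 33.9 ± 6.85 CPM. Of the signalling members, Traf3 averaged 159 ± 32.0 CPM against 276 ± 53.1, 129 ± 27.9 and 669 ± 72.3 CPM, was lower than in cDC2 and CCR7 DCs and was not called against cDC1. Irak1 and Irak4 were called lower in the same 2 comparisons, Irak1 in neither with the mouse as a block (edgeR adjusted p = 0.175 and 0.187). Traf6 was lower than in CCR7 DCs, and Myd88, the adaptor of Tlr7 and Tlr9, was called against CCR7 DCs, where it was higher (1.55 ± 0.28), and not against cDC2 or cDC1. Irf5 was lower, at 85.2 ± 12.0 CPM against 174 ± 26.3, 273 ± 25.2 and 162 ± 13.6 CPM. Cgas, the cytosolic DNA sensor, was lower as well, at 4.22 ± 3.59 CPM against 43.0 ± 13.1, 50.01 ± 8.53 and 22.8 ± 8.01 CPM. Tlr3, the double-stranded RNA receptor of cDC1, had 2 UMIs in the pDCs of the 7 fitted mice, with 3 more in hCD2+ pDCs, against 227 ± 59.9 CPM in cDC1.

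No interferon was detected. All 20 genes of type I and III interferon in the list had 0 of 3543874 pDC UMIs, which allows up to 0.847 CPM each, and 0 of 138 cells, which allows a share of up to 2.17% of cells with a UMI. None passed the filter in any comparison. The effector Gzmb was at 0 as well. Of the 19 interferon response genes measured (Mx1 was not analysed here), 4 were higher and 4 lower of 16 against cDC2, 4 higher and none lower of 11 against cDC1, and 7 higher and 5 lower of 15 against CCR7 DCs, with medians of -0.01, -0.05 and 0.81. Both receptor chains were among the higher ones. Ifnar1 averaged 272 ± 60.7 CPM against 77.0 ± 11.2, 95.1 ± 19.1 and 65.7 ± 7.63 CPM, and Ifnar2 582 ± 148 CPM against 153 ± 23.9, 116 ± 31.2 and 89.5 ± 10.02 CPM, with no overlap between gates. Stat2 was higher in each by 0.87 ± 0.16, 0.81 ± 0.25 and 1.36 ± 0.14, while Isg15, an early interferon-induced gene, was found in 10 of 36 hCD2+ and 21 of 102 hCD2- pDCs and was called lower than in CCR7 DCs. With the mouse as a block Stat2 was not called against cDC1 (0.54, edgeR adjusted p = 0.062).

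Homing receptors were mixed. Of 14 listed genes 2 belonged to the gates. In pDCs 4 were higher and 2 lower of 9 against cDC2, 4 higher and 3 lower of 8 against cDC1 and 7 higher and 1 lower of 9 against CCR7 DCs, with medians of 0.48, 0.17 and 3.54. Cxcr3, which guides cells to inflamed tissue, averaged 51.0 ± 16.1 CPM against 5.47 ± 2.98 in cDC2, 31.0 ± 7.22 in cDC1 and 0.342 ± 0.485 in CCR7 DCs. Against cDC1 its call was lost with no count filter (0.51, edgeR adjusted p = 0.0569) and without cells holding other types' markers with Cd8b1, Cd5 and Cd79b spared (0.41, edgeR adjusted p = 0.176). The integrin chain Itga4 was lower than in cDC2 (711 ± 145 CPM against 1134 ± 134) and CCR7 DCs (1774 ± 210) and was not called against cDC1 (822 ± 143).

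Antigen presentation ran the other way. Of 18 MHC class II and costimulation genes, 15 were lower and 1 higher than in cDC2, 13 lower and 1 higher of 17 against cDC1, and 13 lower and 3 higher against CCR7 DCs, with medians of -1.94, -1.57 and -1.34. Cd80 had 0, 0 and 13.9 CPM at the lowest, median and highest of 7 pDC mice, against 137, 199 and 293 CPM in cDC2, 62.8, 107 and 171 CPM in cDC1 and 229, 307 and 435 CPM in CCR7 DCs. Cd86 averaged 64.9 ± 68.6 CPM against 1278 ± 335, 508 ± 139 and 890 ± 77.3 CPM. H2-Ab1, a class II chain, averaged 1162 ± 295 CPM against 3416 ± 257, 5201 ± 425 and 1484 ± 208 CPM, and Cd74 4913 ± 855 CPM against 9736 ± 468, 12006 ± 771 and 6210 ± 540 CPM. Free RNA held 3388 CPM of Cd74 in the hCD2+ and 5084 CPM in the hCD2- library, and its part in these levels was not tested. Ctss, the protease that trims the invariant chain, was higher in pDCs in all 3 (0.39 ± 0.11, 0.93 ± 0.11 and 0.37 ± 0.10), but not under every alternative. Against cDC2 the call was lost with the mouse as a block (0.27, edgeR adjusted p = 0.108), with cells thinned to 3000 UMIs (adjusted p = 0.0605) and without cells holding other types' markers with Cd8b1, Cd5 and Cd79b spared (adjusted p = 0.408). Against CCR7 DCs it was lost with no count filter (edgeR adjusted p = 0.05002) and when thinned (adjusted p = 0.079).

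Genes of the secretory pathway were mostly higher. Of 16, 14 were higher and none lower than in cDC2, 9 higher and 2 lower than in cDC1, and 13 higher and 1 lower than in CCR7 DCs, with medians of 0.92, 0.36 and 1.08. Xbp1, the factor that enlarges the secretory apparatus, was at 248, 272 and 384 CPM in pDC mice, against 41.9, 67.8 and 108 CPM in cDC2, 52.6, 96.8 and 118 CPM in cDC1 and 12.9, 27.4 and 33.2 CPM in CCR7 DCs. Its groups did not overlap, and its log2 fold changes were 2.09 ± 0.14, 1.59 ± 0.13 and 3.22 ± 0.15 (SE, called by edgeR).

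Receptors that inhibit or signal through ITAM adaptors were mostly higher. Leaving out Siglech, 9 of 15 were higher and 1 lower than in cDC2, 11 of 14 higher and 3 lower than in cDC1, and 11 of 15 higher and 2 lower than in CCR7 DCs, with medians of 0.94, 2.58 and 1.29. Tyrobp (DAP12), the adaptor of Siglech, averaged 1535 ± 218 CPM against 555 ± 51.7, 246 ± 29.6 and 307 ± 30.7 CPM. Lair1, an inhibitory collagen receptor, averaged 676 ± 147 CPM against 71.2 ± 15.2, 18.2 ± 10.7 and 14.4 ± 6.73 CPM. Ptprs, a phosphatase that restrains pDC activation, averaged 221 ± 42.8 CPM against 21.6 ± 5.64, 36.1 ± 7.84 and 37.8 ± 5.26 CPM. Lag3 averaged 130 ± 26.7 CPM against 8.80 ± 3.42, 3.03 ± 4.27 and 6.84 ± 2.67 CPM.

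Most lymphoid-associated genes were too low in these cells to be tested. Of 16 listed, only 6, 4 and 7 passed the filter, of which 4, 4 and 5 were higher in pDCs and 0, 0 and 2 lower. Il7r, the interleukin 7 receptor, averaged 404 ± 143 CPM against 29.4 ± 9.06 in cDC2, 2.32 ± 2.13 in cDC1 and 201 ± 33.1 in CCR7 DCs. Notch1 averaged 100 ± 33.1 CPM against 2.73 ± 1.43, 11.8 ± 4.63 and 2.22 ± 1.14 CPM. Dntt, the template-free DNA polymerase of receptor rearrangement, was found in 9 of 36 hCD2+ and 24 of 102 hCD2- pDCs (17.8 and 22.3 CPM), against 0.102 and 0.175 CPM in near-empty droplets. Rag1 had 1 UMI in hCD2+ and 2 UMIs in hCD2- pDCs. Near-empty droplets held 1227 CPM of Il7r in the hCD2+ and 273 CPM in the hCD2- library, and the part of free RNA in the Il7r level was not tested.

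Factors and surface genes of conventional and transitional DCs were mixed. Of the transitional list 5 of 7 were lower than in cDC2, 3 of 5 than in cDC1 and 3 of 8 than in CCR7 DCs, with 0, 0 and 2 higher. Of the conventional list 5 of 8, 6 of 11 and 8 of 16 were lower, with 2, 3 and 5 higher. Id2, the inhibitor of E proteins, was at 0, 21.0 and 46.7 CPM in pDC mice, against 284, 385 and 503 CPM in cDC2, 567.7, 897 and 1142 CPM in cDC1 and 1023, 1323 and 1553 CPM in CCR7 DCs. Batf3, required for cDC1, averaged 7.84 ± 9.86 CPM in pDCs against 89.7 ± 18.5, 131 ± 18.1 and 200 ± 25.0 CPM, and Zbtb46, a cDC-restricted factor, 37.3 ± 30.3 CPM against 168 ± 22.6, 174 ± 45.2 and 404 ± 43.3 CPM. Over all hCD2- pDCs Zbtb46 was at 38.2 CPM, and at 14.6 CPM in those with at least 10 UMIs of Siglech. Irf4 went against the list and was higher, at 163 ± 41.2 CPM against 79.3 ± 21.0, 1.42 ± 1.89 and 99.9 ± 23.8 CPM. Against CCR7 DCs its call was lost with DESeq2 (0.34, adjusted p = 0.0747) and without mouse 12 (0.39, edgeR adjusted p = 0.0912). It was also lost with no count filter (edgeR adjusted p = 0.161) and when thinned (0.187). Leaving out other types' cells with Cd8b1, Cd5 and Cd79b spared ended it too (edgeR adjusted p = 0.102). Also called higher were Cd24a against cDC2, Sirpa and Clec10a against cDC1, and Clec9a, Cd209a, Clec10a and Mgl2 against CCR7 DCs. Of the transitional list, Cd5 and Cd209a were called higher than in CCR7 DCs. With the mouse as a block Cd24a and Cd5 lost these calls.

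Cytokine genes were led by Ccl4, a chemokine. It was at 816, 1230 and 2142 CPM in pDC mice, against 4.03, 151 and 303 CPM in cDC2, 5.23, 74.9 and 344 CPM in cDC1 and 3.56, 38.0 and 190 CPM in CCR7 DCs, log2 fold changes of 3.24 ± 0.38, 3.79 ± 0.38 and 4.09 ± 0.55 (SE, called by edgeR). Ccl3, its neighbour and relative, was at 66.0 ± 68.6 CPM, was not called against cDC2 and lost its call against CCR7 DCs with the mouse as a block (0.68, edgeR adjusted p = 0.182). Of the 16 listed, 2 were higher and 4 lower of 8 against cDC2, 3 higher and 5 lower of 9 against cDC1, and 4 higher and 8 lower of 12 against CCR7 DCs. Il12a had 28 UMIs in 14 of 102 hCD2- pDCs and 0 UMIs in the 36 hCD2+ pDCs, which allows up to 3.34 CPM there. Tgfb1 was higher in all 3, at 315 ± 69.7 CPM against 200 ± 14.7, 130 ± 27.5 and 61.8 ± 12.5 CPM.

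Cycling was low. All 15 proliferation genes were lower than in cDC2 and than in cDC1, and 12 of 14 were lower than in CCR7 DCs, with medians of -4.07, -4.14 and -2.85. Mki67 averaged 14.9 ± 16.8 CPM in pDCs against 293 ± 103, 314 ± 162 and 135 ± 46.7 CPM, and Birc5 had 0 UMIs in the 7 fitted mice, with 19 UMIs in all hCD2+ and 4 in all hCD2- pDCs. Of the cytochrome c oxidase subunits other than Cox6a2, none of 10 was higher in any comparison and 2, 8 and 4 were lower, with medians of -0.15, -0.50 and -0.16. Cox6a1, the common counterpart of Cox6a2, averaged 158 ± 56.5 CPM in pDCs against 165 ± 12.2 in cDC2, 208 ± 27.7 in cDC1 and 118 ± 9.92 in CCR7 DCs. The other muscle-type subunits Cox7a1 and Cox8b had 0 UMIs in all pDCs.

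**Figure D3:**
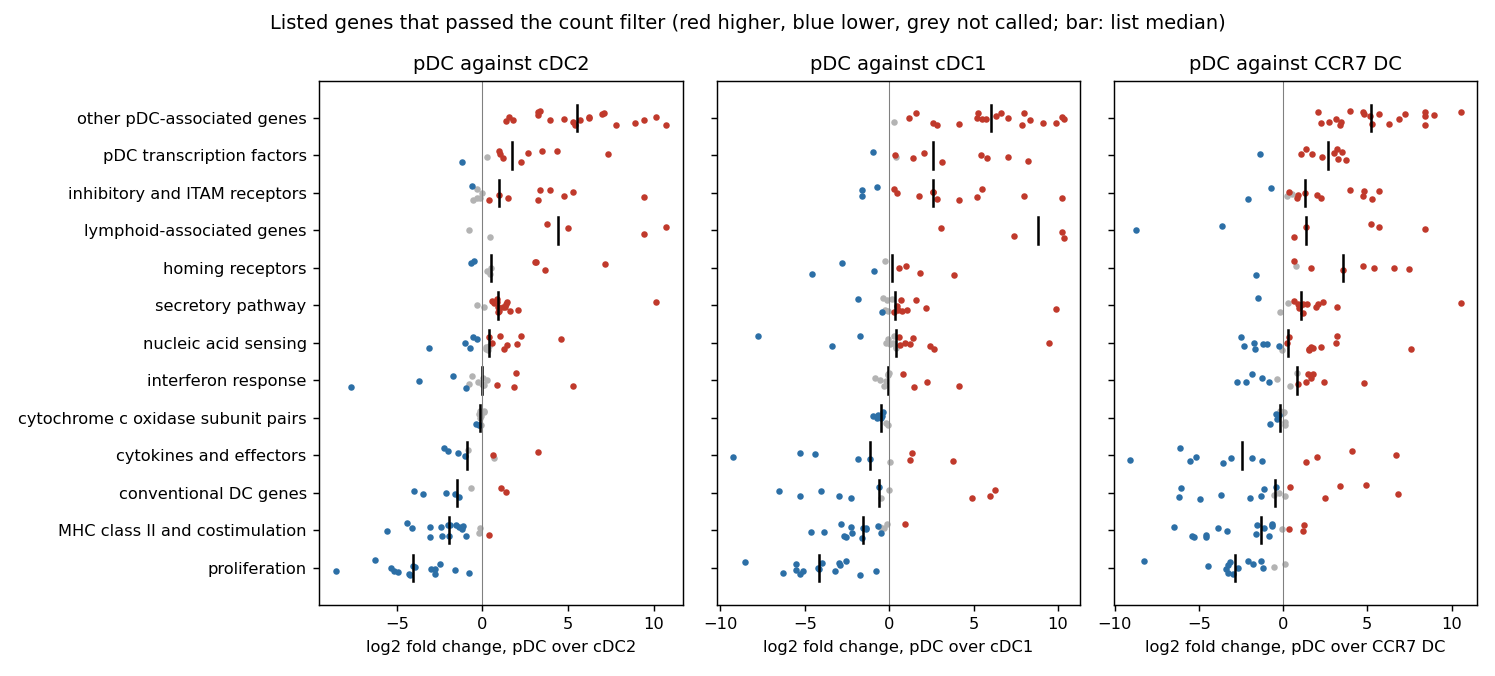
Log2 fold change of each listed gene that passed the count filter, pDC over cDC2, cDC1 and CCR7 DC (hCD2- fraction, 7 against 12 mice); points are genes (red called higher, blue called lower, grey not called) and vertical bars list medians. Nearly all pDC-associated genes lie to the right and all proliferation genes against cDC2 and cDC1 to the left, and the MHC class II list has medians of -1.94, -1.57 and -1.34.

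The cassette and the fate label were read in the same cells. Gm38411, hCD2, iCre and Cre had 0 UMIs in all 36 hCD2+ pDCs and all 102 hCD2- pDCs. At these depths a count of 0 allows up to 3.34 CPM in hCD2+ and 1.13 CPM in hCD2- pDCs, or 8.33% of the 36 hCD2+ cells with a UMI. In the Prdm16-high cells of the hCD2+ fraction, hCD2 was at 68.0 CPM (765 of 1162 cells) and Gm38411 at 76.0 CPM. CCR7 DCs held 5.25 CPM of hCD2 in the hCD2+ and 0.797 CPM in the hCD2- fraction, and near-empty droplets 25.7 and 1.31 CPM. The pDCs sorted as hCD2+ therefore had no detected RNA of the reporter they were sorted on.

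tdTomato RNA was found in 16 of 36 hCD2+ pDCs (47 UMIs, 52.3 CPM) and 87 of 102 hCD2- pDCs (745 UMIs, 282 CPM). By mouse, with at least 3 pDCs each, the hCD2+ fraction had 45.6, 14.2, 47.8, 24.9 and 198 CPM in mice 3, 4, 5, 10 and 12. The hCD2- fraction had 51.2, 37.1, 348, 216, 353, 53.5, 327, 210, 374 and 376 CPM in mice 1, 2, 4, 5, 6, 7, 8, 10, 11 and 12. The hCD2- mice thus lay in a low set of 3 (mice 1, 2 and 7) and a high set of 7, and 1 hCD2+ mouse stood apart from the other 4. The low set rests on few counts, 4, 8 and 8 tdTomato UMIs in 3, 7 and 7 cells. Mouse 4 of the high set rests on 24 UMIs in 3 cells. In mice 1, 2 and 7 the hCD2- CCR7 DCs held 305, 317 and 360 CPM, within the range of all 12 mice (305 to 369 CPM).

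The mean was 66.1 ± 75.1 CPM in hCD2+ pDCs (SD, n = 5 mice) and 234 ± 142 CPM in hCD2- pDCs (SD, n = 10), with overlapping groups (exact two-sided permutation test p = 0.0173, adjusted p = 0.0173 over 4 gates). That test treats the mice as unpaired. Mice 4, 5, 10 and 12 gave both fractions, all 4 lower in hCD2+, which is too few pairs for an exact paired test to pass, and the blocked fit gave an edgeR adjusted p of 0.357. Without hCD2+ mouse 12, where 1 cell that also held 371 UMIs of Lyz2 gave 21 of the 47 UMIs, the hCD2+ mean was 33.1 ± 16.3 CPM (exact permutation p = 0.00999). In the fit over all genes tdTomato was not called (log2 -1.85 ± 0.60, edgeR adjusted p = 0.298). Near-empty droplets held 158 CPM in the hCD2+ and 246 CPM in the hCD2- library, so that the median pDC mouse lay below the droplet level in the hCD2+ library and above it in the hCD2- library.

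The other gates also had less tdTomato RNA in the hCD2+ fraction. It averaged 93.1 ± 58.4 CPM in hCD2+ (n = 9) and 256 ± 36.7 CPM in hCD2- cDC2 (n = 12; exact permutation p = 1.36e-05). In cDC1 it averaged 103 ± 67.3 CPM in hCD2+ (n = 10) and 223 ± 57.5 CPM in hCD2- mice (n = 12; permutation p = 0.00054). In CCR7 DCs it averaged 208 ± 31.0 CPM in hCD2+ and 334 ± 20.2 CPM in hCD2- mice (n = 12 each; permutation p = 2e-05, the smallest that 100000 resamples can give). The difference of the contrast between pDCs and CCR7 DCs was -1.25 on the log2 scale and was not called (edgeR adjusted p = 0.211, with no term for the mouse). Lower tdTomato RNA in the hCD2+ library was therefore not shown to be particular to pDCs.

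**Figure D4:**
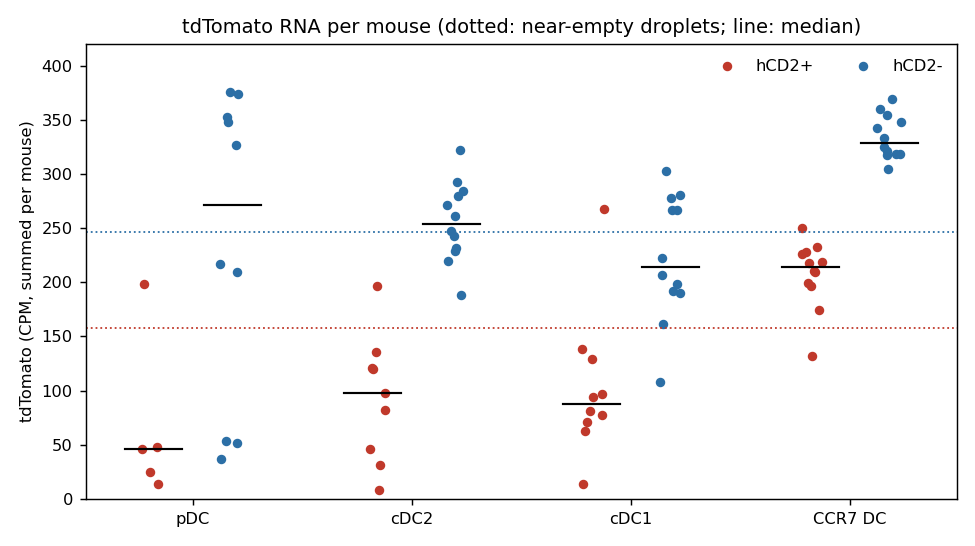
tdTomato CPM per mouse in each gate, hCD2+ (red) left of hCD2- (blue); black lines are medians and dotted lines the level in near-empty droplets of each library, 158 CPM in hCD2+ and 246 CPM in hCD2-. Only 1 hCD2+ pDC mouse lies above its droplet line, and the hCD2- pDC mice fall into a low set of 3 and a high set of 7.

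Gene by gene, few calls were made between hCD2+ and hCD2- pDCs. In 5 hCD2+ against 10 hCD2- mice with at least 3 pDCs each, 4 of 3670 genes (0.109%) were higher and 13 (0.354%) lower in hCD2+ pDCs by edgeR, while 301 had an unadjusted p under 0.05. The balance turned to 49 higher and 12 lower with no count filter, and to 20 higher and 5 lower without cells holding other types' markers, where 1 hCD2+ and 3 hCD2- mice remained and 1 of the 17 genes was still called. With the mouse as a block, in the 4 mice that had both, 0 of 3104 genes were called. No member of any of the 16 gene lists was called. The transcription factor list had a median log2 fold change of -0.05 over 10 genes, the other pDC-associated list -0.02 over 20 and the secretory list -0.07 over 16. Few cells enter each hCD2+ sample (4 to 9 per mouse), and a gene not called is not shown to be alike.

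Of the 17 called genes, 12 were ribosomal, mitochondrial or predicted genes. The share of that class among all genes tested was not determined, so that the 12 cannot be read as an excess. In CCR7 DCs, where 21.6% of 9562 genes were called between the fractions, 14 of the 17 were also called in the same direction. The predicted gene Gm10076 averaged 84.7 ± 15.1 CPM in hCD2+ pDCs (n = 5) and 370 ± 39.8 CPM in hCD2- pDCs (n = 10), with no overlap. Its log2 fold change was -2.10 ± 0.18 in pDCs and -2.13 ± 0.07 in CCR7 DCs. Rpl35 averaged 259 ± 24.4 CPM in hCD2+ and 600 ± 47.0 CPM in hCD2- pDCs, with log2 fold changes of -1.19 ± 0.13 in pDCs and -1.15 ± 0.05 in CCR7 DCs. For neither was the difference between the cell types called. Of the 5 remaining genes 2 were lower. Cmss1, a gene linked to ribosomal RNA, averaged 1722 ± 217 CPM in hCD2+ and 2646 ± 294 CPM in hCD2- pDCs, a log2 fold change of -0.59 ± 0.11 (edgeR adjusted p = 0.0082). Gphn (gephyrin, a scaffold protein) averaged 776 ± 167 CPM in hCD2+ and 1246 ± 119 CPM in hCD2- pDCs, a log2 fold change of -0.66 ± 0.13 (edgeR adjusted p = 0.0117). The groups did not overlap in either gene. Near-empty droplets held 4298 CPM of Cmss1 in the hCD2+ and 6686 CPM in the hCD2- library. In the same order they held 90.3 and 417 CPM of Gm10076, 187 and 672 CPM of Rpl35 and 1283 and 2191 CPM of Gphn. The part of this free RNA in the differences was not tested.

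The difference between pDCs and CCR7 DCs in the contrast of fractions was called for 2.19% of 11167 genes, and for 3 of the 17. That fit had no term for the mouse, although 1 mouse can give several of its samples, and it was not run with the mouse as a block. St6gal1, a sialyltransferase, was at 143, 189 and 268 CPM at the lowest, median and highest of the 5 hCD2+ mice and at 51.0, 92.2 and 166 CPM in the 10 hCD2- mice. It was higher in hCD2+ pDCs by 1.12 ± 0.21 (edgeR adjusted p = 0.00902), and differed from CCR7 DCs (-0.33 ± 0.11) by 1.39 (edgeR adjusted p = 0.000415). The call of St6gal1 in pDCs was lost without hCD2+ replicate 5 (edgeR adjusted p = 0.0563), with at least 2 cells per mouse (0.879), without cells holding other types' markers (0.286) and with the mouse as a block (0.566). Epc1, a chromatin subunit, was at 217, 481 and 579 CPM in hCD2+ and 144, 201 and 298 CPM in hCD2- mice, higher by 1.05 ± 0.23 (edgeR adjusted p = 0.0416). It lost the call without hCD2+ replicate 4, 10 or 12 (adjusted p = 0.131, 0.214 and 0.105 by edgeR). The call of Epc1 was also lost with at least 2 cells per mouse (edgeR adjusted p = 0.271), with the mouse as a block (0.566) and with at least 10 UMIs of Siglech (0.0635). Near-empty droplets held 319 CPM of Epc1 in the hCD2+ and 176 CPM in the hCD2- library, and the part of free RNA in its difference was not tested. Epsti1, an interferon-inducible gene, was at 105, 274 and 5484 CPM in hCD2+ and 102, 177 and 273 CPM in hCD2- mice, with a log2 fold change of 2.86 ± 0.61 (edgeR adjusted p = 0.0304). In hCD2+ pDCs, 859 of its 1090 UMIs came from 1 cell of mouse 10 with 68401 UMIs, which also held 76 UMIs of Ccr7 and 440 of the 449 UMIs of Ccl5. Without hCD2+ replicate 10 the log2 fold change of Epsti1 was 0.56 (edgeR adjusted p = 0.789).

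**Figure D5:**
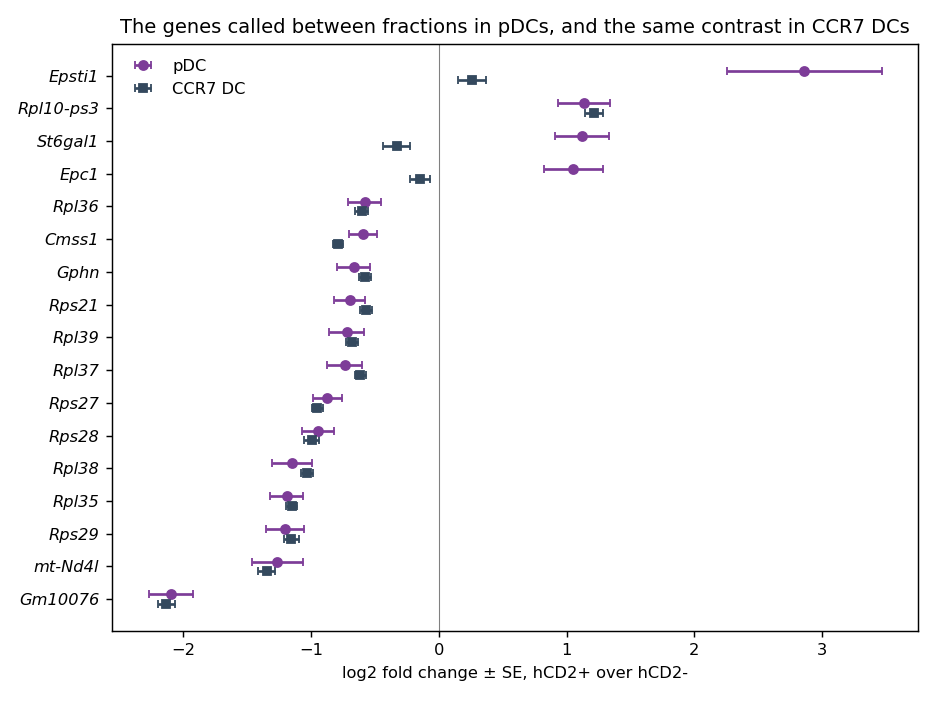
Log2 fold change (± SE, edgeR) of the 17 genes called between hCD2+ and hCD2- pDCs (purple circles) with the same contrast in CCR7 DCs (dark squares). For Epsti1, St6gal1 and Epc1 the difference between the cell types was called, in a fit with no term for the mouse. The other 14 lie close together.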

How the data were processed

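The deposited values were UMI counts per gene and barcode in 1 matrix per sorted fraction, made by the authors with Cell Ranger 8.0.1 on mm10 per the submitters' processing notes, with iCre, Cre, hCD2 and tdTomato among the features. They carry no normalization. A deposited table names each called cell's hashtag. The hCD2+ and hCD2- libraries held 8801 and 5603 called cells, of which 7415 and 4907 had exactly 1 hashtag. Multiplets (806 and 465), Blank (295 and 168) and Unassigned (285 and 63) barcodes were left out, and no other doublet caller was run, so that doublets of 1 mouse remain. Members, comparison gates, gene lists and marker lists were chosen with earlier results of these data known.

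Counts were summed per mouse, fraction and gate and fitted with edgeR 4.0.16 in R 4.3.3 (TMM, filterByExpr, quasi-likelihood, SE taken as the log2 fold change over the root of F), after a test on simulated data. List and marker members could be named by level. By call, each list gave at most 4 genes with the lowest adjusted p on its majority side plus every gene called on the other side, and each comparison the 10 called genes of largest fold in each direction with a mean log2 CPM of at least 5. Predicted, ribosomal, mitochondrial and immunoglobulin genes were left out of the last group. Epsti1, Gm10076, Rpl35, Rpl36, Rpl37 and Rps27 fall outside this rule and were chosen after their values were seen, as were the single cells and sets of mice named. Floors of 3 UMIs and the exact Poisson intervals on ratios cover counting error only, and a gene at 0 in 1 arm lies on the same side of its list's median at its bound as at its fitted value.

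Equal hashtag numbers are the same animal by the series' design text. As a check, deviations from the fraction mean over 9085 genes correlated at r = 0.0514 to 0.512 for equal numbers (above 0.1 in 11 of 12). For 7 of 12 hCD2+ mice the equal number gave the highest correlation of all hCD2- mice. The average for unequal numbers was -0.0314. Subtracting the fraction mean makes that average slightly negative, so that it is no control. Shares and tdTomato were compared by two-sided permutation tests of mice in Python 3.11.15 with numpy 2.4.6, scipy 1.17.1 and pandas 2.3.3, exact where a group had under 10 mice. Alternatives were other gate thresholds, cell minimums, no count filter, cells thinned to 3000 UMIs, DESeq2 1.42.0, leaving out cells or mice, and both fractions summed. Alternatives with Siglech at 10 UMIs, without mouse 12, without single hCD2+ replicates and with Cd8b1, Cd5 and Cd79b spared were added after seeing the data. No protein sequences were used here, and Cox6a2 had no promoter entry. Some members of the gene and marker lists are counted in the totals but are not reported here.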

Additional observations from a re-analysis of the deposited data

Results flagged for a closer look

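Groups of 4 to 10 mice were tested for the genes named, by the ratio of 1 mouse's gap to the group's range. In 9 of 70 groups 1 mouse lay apart, at a limit meant to pass about 1 in 20 single groups. Some genes were chosen after their values were seen and the groups share mice, so that the count cannot be set against that rate. Among pDCs of the hCD2+ fraction, Epsti1 in mouse 10 had a ratio of 0.917 (5484 CPM, against 105 to 552 CPM in the other 4 mice). tdTomato in mouse 12 had a ratio of 0.817 (198 CPM, against 14.2 to 47.8 CPM). Rps27 in mouse 3 had a ratio of 0.717 (1073 CPM, against 791 to 870 CPM), and Rpl37 in mouse 5, which was low, 0.741 (641 CPM, against 863 to 940 CPM). Over the hCD2+ pDCs, 1 cell of mouse 10 held 859 of the 1090 UMIs of Epsti1, and 1 cell of mouse 12 held 21 of the 47 UMIs of tdTomato.

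Among pDCs of the hCD2- fraction, Ly6c2 in mouse 11 had a ratio of 0.599 (1858 CPM, against 575 to 1089 CPM in the other 6 mice). Mzb1 in mouse 8 had a ratio of 0.582 (548 CPM, against 338 to 426 CPM). Ptprs in mouse 2 was low with a ratio of 0.575 (134 CPM, against 205 to 257 CPM). In the 10 mice of the comparison of fractions, St6gal1 in mouse 1 had a ratio of 0.594 (166 CPM, against 51.0 to 97.9 CPM) and Rpl36 in mouse 10, which was low, 0.488 (645 CPM, against 805 to 973 CPM).

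The contrast of hCD2+ with hCD2- was called as different between pDCs and CCR7 DCs, by edgeR's test of the difference itself, for 3 of the called genes. That test had no term for the mouse and was not run with the mouse as a block. The difference on the log2 scale was 1.39 for St6gal1, 2.57 for Epsti1 and 1.18 for Epc1. Epsti1 rests on the cell of mouse 10 named above. Over the 13 alternatives the log2 fold change in pDCs ran from 0.66 to 1.67 for St6gal1 (called in 9), from 0.36 to 3.15 for Epsti1 (called in 7) and from 0.81 to 2.45 for Epc1 (called in 7).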

How the results depend on the processing

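The lower pDC share of kept cells in the hCD2+ fraction kept its sign and passed under every alternative run, from -1.06 to -1.66 points, and the share of dendritic cells passed under none. The 17 of 3670 genes called between fractions became 11 of 3048 with at least 2 cells per mouse and 10 of 4486 with at least 5. They became 27 of 3670 with DESeq2 and 61 of 14761 with no count filter. Without cells holding other types' markers, with Cd8b1, Cd5 and Cd79b spared, they became 10 of 3842. They numbered 13 to 17 without single hCD2+ replicates. The replicate block left 0 called in the 4 mice with both fractions and ended 17 calls among the 23 genes followed there. Leaving out cells with other types' markers ended 16 and added 2. Against other dendritic cells the block ended the call of Cd24a, Cox6c, Ctss and Irak1 (cDC2), Ccl5 and Stat2 (cDC1), and Ccl3, Cd5, Cox6b1 and Irak1 (CCR7 DC). Calls with the block were 3297 of 7667 genes (cDC2), 3327 of 6518 (cDC1) and 4669 of 8694 (CCR7 DC). Without it they were 4044 of 8011, 4109 of 7218 and 6091 of 9849.

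Thinning to 3000 UMIs per cell left 936, 563 and 2027 genes called against cDC2, cDC1 and CCR7 DCs, with fewer counts per sample. Leaving out cells with markers of other types, which removes pDCs with Cd8b1 and leaves 1 pDC mouse assumed to vary like the other gates, gave 547, 1265 and 3000. With Cd8b1, Cd5 and Cd79b spared, 2244 were called against cDC2. Of 3014 alternative values of the genes named against other dendritic cells, 2852 kept direction and call, 152 lost the call and 10 reversed. The 1-mouse alternative reversed Ctss (-0.14 against cDC2, -0.10 against CCR7 DCs), Ccl5 (-0.59) and Cxcr3 (-0.64) against cDC1, and Hmgb2 (0.046), Irf4 (-0.082) and Top2a (1.92) against CCR7 DCs. DESeq2 reversed Ccl5 against cDC1 (-0.31). Ms4a4c against CCR7 DCs reversed with both fractions summed (0.17) and with other types' cells left out but Cd8b1, Cd5 and Cd79b spared (0.028). The causes were not tested. The comparison of fractions rests on 36 hCD2+ pDCs.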
